A study of Mus musculus with 2 samples.

Results

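Adrenal chromaffin cells arise from the neural crest, share a lineage with sympathetic neurons and are known to express many neuronal genes. The 8 genes described here are Tubb3, Uchl1, Syp, Stmn2 and Snap25, which are commonly used as neuronal and neuroendocrine markers, and the transcription factors Gata3, Phox2a and Hand2, which act in the sympathoadrenal lineage. They were chosen by name, as the rows of both deposited tables that carry these 8 gene names, with earlier results of these data known. All 8 had reads in both libraries. Of all annotated genes, 18179 had at least 1 read in either library, 16215 in replicate 1 and 16263 in replicate 2. The samples were adrenal glands from female mice of the strain B6CASTF1/J at an age of 10 days, the hybrid offspring of C57BL/6J and CAST parents, with no treatment and no engineered allele named in the labels. They form 1 group of 2 libraries, numbered replicate 1 and replicate 2 in the labels, so there was no contrast between conditions. The library texts of the labels name the same animal for both libraries, whereas the tissue texts name different animals, so the spread between the 2 libraries may be partly technical. Each library was measured by long-read RNA sequencing, in which a read is meant to run along most of an RNA molecule and so can show how its exons are joined.

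Chromaffin cells of the adrenal medulla release adrenaline and noradrenaline from dense-core vesicles by the same SNARE-driven membrane fusion that neurons use at synapses. Phox2a, Hand2 and Gata3 belong to a network of transcription factors, together with Gata2 and others, that turns on the catecholamine enzymes in sympathoadrenal precursors. The medulla is a small part of a gland that consists mostly of steroid-making cortex, and nerve fibres and ganglion cells also lie within it. In RNA from a whole gland, fewer cells of a type and less RNA per cell cannot be told apart.

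Replicate 1 held 593165 reads and replicate 2 held 772154 reads after spike-ins were left out, and levels are given as CPM, reads scaled to a common total. A single read was worth 1.69 CPM in replicate 1 and 1.30 CPM in replicate 2, and 0 reads allowed a level of up to 5.06 and 3.89 CPM (3 counts of the total). These limits, and all intervals given here, cover counting error only. The tissue label was checked with marker lists. The 5 genes of the steroid-making cortex summed to 14719 CPM in replicate 1 and 18359 CPM in replicate 2, and 10 catecholamine and vesicle genes of chromaffin cells summed to 5713 and 6418 CPM. The libraries differed in 10 kidney genes, which had 0 reads in replicate 1 and 532 reads (689 CPM) in replicate 2. They also differed in genes of other tissues that were higher in replicate 1, such as the liver genes Alb, with 2008 reads in replicate 1 and 351 in replicate 2, and Ahsg, with 1838 and 367, and the skeletal muscle actin gene Acta1, with 2911 and 975. The part of these genes in the results below was not tested, except where a value is given.

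The 8 genes together held 215 reads in replicate 1 and 246 reads in replicate 2. Their summed level was 362 CPM (95% Poisson interval 316 to 414) in replicate 1 and 319 CPM (280.02 to 361) in replicate 2, a mean of 341 ± 31.02 CPM (SD, n = 2). The 5 neuronal genes made up 315 CPM in replicate 1 and 260.3 CPM in replicate 2. The 3 transcription factors made up 47.2 and 58.3 CPM. The genes were thus of middle to high rank in this tissue. Tubb3 lay above 89.1% of the detected genes in mean CPM, Uchl1 above 83.1%, Syp above 81.4%, Stmn2 above 79.6%, Snap25 above 66.6%, Gata3 above 61.8%, Phox2a above 58.1% and Hand2 above 56.7%.

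**Figure D1:**
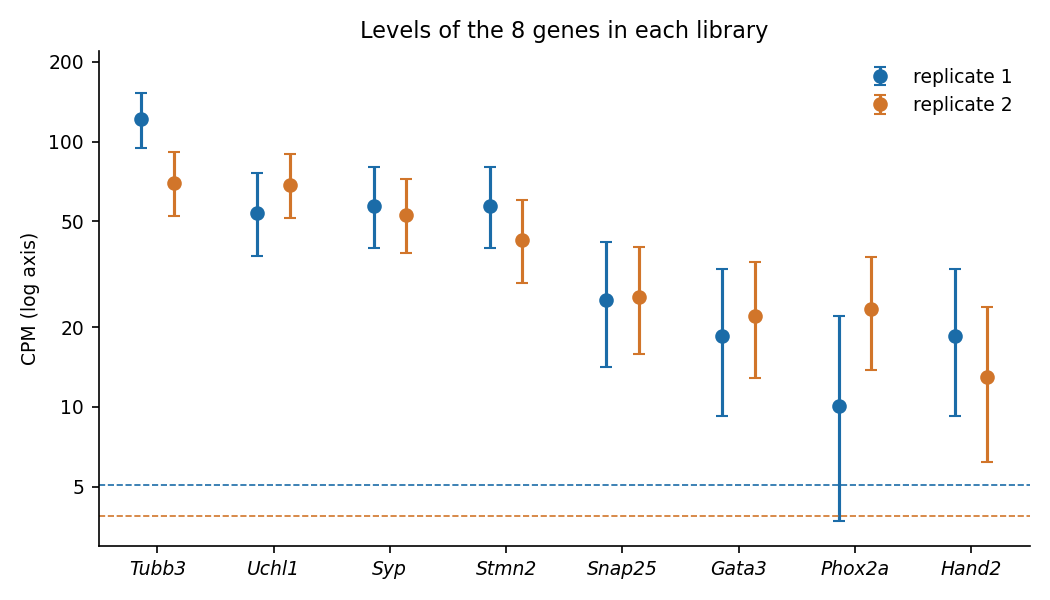
Level of each gene in CPM (log axis) in replicate 1 and replicate 2, with exact 95% Poisson intervals as bars, and genes ordered by their mean. The levels run from 121 CPM for Tubb3 to 10.1 CPM for Phox2a, both in replicate 1, and the intervals of the 2 libraries overlap for each gene except Tubb3.

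Neighbours in the order of levels could mostly not be separated. Tubb3 and Uchl1 stood at 121 and 53.9 CPM in replicate 1 but lay at 69.9 and 68.6 CPM in replicate 2. Uchl1, Syp and Stmn2 changed places between the libraries, and so did Gata3, Phox2a and Hand2. Stmn2 lay above Snap25 in both libraries, at 57.3 against 25.3 CPM in replicate 1 and 42.7 against 25.9 CPM in replicate 2. Their 95% Poisson intervals overlapped in each library. Levels were also set per kilobase of the most counted annotated model. This division lowers genes with long transcripts, so it does not correct for long molecules that are recovered less often. On this scale the order was Uchl1 at 62.5 CPM per kilobase, Tubb3 at 51.2, Snap25 at 25.2, Stmn2 at 24.1, Syp at 21.3, Phox2a at 10.4, Hand2 at 6.70 and Gata3 at 6.31. The 3 transcription factors were the lowest genes on both scales. For Uchl1 the length used was the 980 bases of Uchl1-202, a short annotated model that held 4 of its 85 reads. For Snap25 it was the 1014 bases of Snap25-202, whereas the other annotated model with reads, Snap25-201, has 2116 bases. The place of Snap25 on this scale depends on that choice.

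Snap25 (ENSMUSG00000027273.13, chr2:136713453-136782428, + strand, mm10) encodes the membrane-anchored SNARE protein that pairs with syntaxin and synaptobrevin to fuse vesicles. It had 15 reads (25.3 CPM) in replicate 1 and 20 reads (25.9 CPM) in replicate 2, a mean of 25.6 ± 0.434 CPM (SD, n = 2). The locus holds a pair of mutually exclusive exons of 118 bases each, here called 5a (chr2:136769743-136769860) and 5b (chr2:136770057-136770174), and a transcript carries one or the other. The SNAP-25b form is known to take over from SNAP-25a in the brain during postnatal life, while adult chromaffin cells are known for SNAP-25a. The sequences are shown because the choice between them is what the reads resolve. They come from the GENCODE M21 transcripts on mm10, 5′ to 3′, and capitals mark the 31 positions at which the exons differ.
Snap25 exon 5a: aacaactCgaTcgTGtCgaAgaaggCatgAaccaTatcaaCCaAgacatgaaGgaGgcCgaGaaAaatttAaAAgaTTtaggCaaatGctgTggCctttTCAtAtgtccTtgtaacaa
Snap25 exon 5b: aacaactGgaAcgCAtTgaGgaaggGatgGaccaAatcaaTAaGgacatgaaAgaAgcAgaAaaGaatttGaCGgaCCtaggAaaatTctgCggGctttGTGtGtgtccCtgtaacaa
The other 87 bases (73.7%) are identical, and translation of the annotated transcripts gives 206 residues with either exon, of which 9 differ, all between residues 58 and 89.

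Exon 5a was the more frequent of the pair in both libraries. It was present in 12 of 15 reads of replicate 1 that crossed this region (80%, 95% Clopper-Pearson interval 51.9 to 95.7) and in 13 of 19 reads of replicate 2 (68.4%, 43.4 to 87.4). Over both libraries this was 25 of 34 reads (73.5%, 55.6 to 87.1), so the remaining 9 reads carried exon 5b. The intervals of the 2 libraries overlap widely. All reads with 5a were counted on the annotated transcript Snap25-202, and 8 reads with 5b on Snap25-201. The annotation ends these transcripts at 136781351 and 136782428. The ends of the reads themselves are not given, so a link between exon choice and 3′ end was not tested. A single read of replicate 2 had an unannotated splice site. Among reads with the last intron, 15 of 15 in replicate 1 and 18 of 19 in replicate 2 also held the first.

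Syp (ENSMUSG00000031144.15, chrX:7638471-7653256, + strand) encodes synaptophysin, a membrane protein of small synaptic vesicles that also marks neuroendocrine cells. It had 34 reads (57.3 CPM) in replicate 1 and 41 reads (53.1 CPM) in replicate 2, a mean of 55.2 ± 2.98 CPM (SD, n = 2). The libraries were close in level. The only annotated model with reads was Syp-201, of 7 exons and 2591 bases, with 22 reads (64.7%) in replicate 1 and 31 reads (75.6%) in replicate 2. The rest lay mostly towards the 3′ end. In replicate 1, 11 of the 12 other reads were on shorter pieces of Syp-201. In replicate 2, 8 of the 10 others were on a single-exon model of 2845 bases that overlaps the last exon and runs beyond it into the intron. In replicate 1, 23 of 30 reads with the last intron also had the first (76.7%, 57.7 to 90.1), against 31 of 33 in replicate 2 (93.9%, 79.8 to 99.3). A 2-exon model that begins at 7648557 and ends with the annotated 3′ end held 5 reads in replicate 1, and replicate 2 had 1 read on a 2-exon model with that start.

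Tubb3 (ENSMUSG00000062380.4, chr8:123411424-123422015, + strand) encodes class III beta-tubulin, the microtubule subunit used as a marker of neurons. It was the gene with the most reads of the 8, with 72 reads (121 CPM, 95.0 to 153) in replicate 1 and 54 reads (69.9 CPM, 52.5 to 91.2) in replicate 2, a mean of 95.7 ± 36.4 CPM (SD, n = 2). Its intervals do not overlap between the libraries. The ratio was 1.74 (95% interval 1.20 to 2.52), with an adjusted p of 0.0332 in an exact binomial test over all genes, and it fell short of the 2-fold change that was also required. With other totals or model classes in the binomial test the adjusted p ran between 0.00605 (catecholamine genes as totals) and 0.134 (annotated models alone), and it was 0.0506 with TMM factors and 0.0570 on models of 2 or more exons. edgeR's negative binomial exact test gave an unadjusted p of 0.180 and an adjusted p of 1. In the binomial test with read totals without spike-ins it was the 1 member at an unadjusted p below 0.05. Among markers of sympathetic neurons, the neurofilament gene Nefl had 60 and 42 reads in replicates 1 and 2, the intermediate filament gene Prph had 49 and 42, and the noradrenaline transporter gene Slc6a2 had 36 and 22. The 8 genes of that list summed to 292 CPM in replicate 1 and 176 CPM in replicate 2. Among 5 that could be tested, 4 were higher in replicate 1, and none was called. The neurofilament gene Nefm went the other way, with 8 reads in replicate 1 and 18 in replicate 2. Nefl had an adjusted p of 0.0298 in the exact binomial test and, like Tubb3, fell short of the 2-fold change. Of the cholinergic genes on the list, which serve only some sympathetic neurons, Chat was at 0 in both libraries and Slc18a3 had 1 read in replicate 1 and 0 in replicate 2. Their part in the Tubb3 ratio was not tested.

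Nearly all spliced Tubb3 reads were the 4-exon transcript Tubb3-201, with 59 reads (81.9%) in replicate 1 and 47 reads (87.0%) in replicate 2. The others were 2-exon pieces and single-exon reads at the 3′ end. The annotation also holds Gm20388, a gene model on the same strand that spans Tubb3 entirely, with 113 reads in replicate 1 and 72 reads in replicate 2. None of those reads lay on a Gm20388 model that overlaps Tubb3. Mc1r, whose locus ends 680 bases upstream of Tubb3 and which is known to give fused transcripts with TUBB3 in human, was at 0 reads in both libraries.

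Stmn2 (ENSMUSG00000027500.10, chr3:8509360-8561606, + strand) encodes stathmin-2 (SCG10), a growth-cone protein that binds tubulin and destabilizes microtubules. It had 34 reads (57.3 CPM) in replicate 1 and 33 reads (42.7 CPM) in replicate 2, a mean of 50.03 ± 10.3 CPM (SD, n = 2). Replicate 1 was the higher library, with overlapping intervals. The annotated 5-exon transcript Stmn2-201 held 27 reads (79.4%) in replicate 1 and 20 reads (60.6%) in replicate 2. All 7 other reads of replicate 1 and 11 of the 13 others of replicate 2 were single-exon reads that overlap the last exon, and in replicate 1 their model, of 3078 bases, runs beyond it. Spliced reads were a smaller share in Stmn2 (73.1% over both libraries) than in any other member, against a median of 93.9% over the 7310 genes that had 10 or more reads in both libraries. Among spliced reads the molecules were nearly complete, since 27 of 27 reads in replicate 1 and 21 of 22 in replicate 2 held both the first and the last intron.

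Uchl1 (ENSMUSG00000029223.12, chr5:66676091-66687234, + strand) encodes a ubiquitin hydrolase that is abundant in neurons and known to pathologists as PGP9.5. It had 32 reads (53.9 CPM) in replicate 1 and 53 reads (68.6 CPM) in replicate 2, a mean of 61.3 ± 10.4 CPM (SD, n = 2). The annotated full-length transcript Uchl1-201, which encodes 223 residues in 9 exons, had 0 reads in both libraries. Its exon 2 is 12 bases long (chr5:66676436-66676447) and adds 4 codons in frame. The sequence below, from GENCODE M21 on mm10, runs from the start codon in exon 1 across exon 2, in capitals, into exon 3, and is shown because no deposited model holds this piece as an exon of its own.
Uchl1-201 coding start: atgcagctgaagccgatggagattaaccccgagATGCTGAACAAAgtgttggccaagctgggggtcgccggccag

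Most Uchl1 reads were instead counted on an unannotated 8-exon model of 1018 bases. In it exon 1 begins at 66676242 and ends at 66676331, which is 9 bases beyond the annotated end of 66676322, and is joined directly to exon 3 (66676944-66677072), with no exon 2. This model held 27 of 32 reads in replicate 1 (84.4%) and 47 of 53 reads in replicate 2 (88.7%). The model with annotated ends of exons 1 and 3 and no exon 2 had 0 and 1 reads, and a model in which exon 2 ran on into the intron had 0 and 2. Of the 27 reads of replicate 1 and the 50 reads of replicate 2 that left exon 1 by splicing, none held the 12-base exon as an exon of its own. By counting error alone this allows a share of up to 11.1% in replicate 1 and 6% in replicate 2 (3 counts of these reads). It sets no limit for the RNA, since all 9 exons of up to 15 bases examined below were absent from the models. The remaining exons matched the annotation, and 27 of 30 reads with the last intron in replicate 1 (90%) and 50 of 52 in replicate 2 (96.2%) reached exon 1.

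Uchl1 was not alone in this. Across all genes, internal exons that every spanning annotated spliced model contains were set against the deposited models, with at least 10 spanning reads in each library. All 9 such exons of 15 bases or less were absent from the models, with 0 of 950 spanning reads carrying one. Besides Uchl1 they lie in Capn2 and Capn1, Tnni2, Tnnt3, Col6a1, Pitpnb, Cir1 and Rwdd4a. Capn2 had its 12-base exon in 0 of 85 spanning reads of replicate 1 and 0 of 94 of replicate 2. Pooled over exons of 16 to 30 bases, 85.2% of spanning reads held them, and over exons of 31 to 50 bases 98.8%. The median per exon of 16 to 30 bases was 98.5% (quartiles 95.6 and 100), with 9 of 199 exons at 0 reads. The pooled share stood between 98.8 and 99.2% for each longer class. A few models with internal exons of 15 bases or less were counted, with 81 of 439514 reads on models of 3 or more exons in replicate 1 and 83 of 596892 in replicate 2. Of those reads, 32 in replicate 1 and 46 in replicate 2 were on annotated models. The absence of the exon from Uchl1 models was thus shared by the other exons of this length examined here. Whether the RNA molecules lack it was not tested. The level of Uchl1 as a gene does not use the model class, but its annotated models alone would give 3.18 CPM in place of 61.3 CPM.

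**Figure D2:**
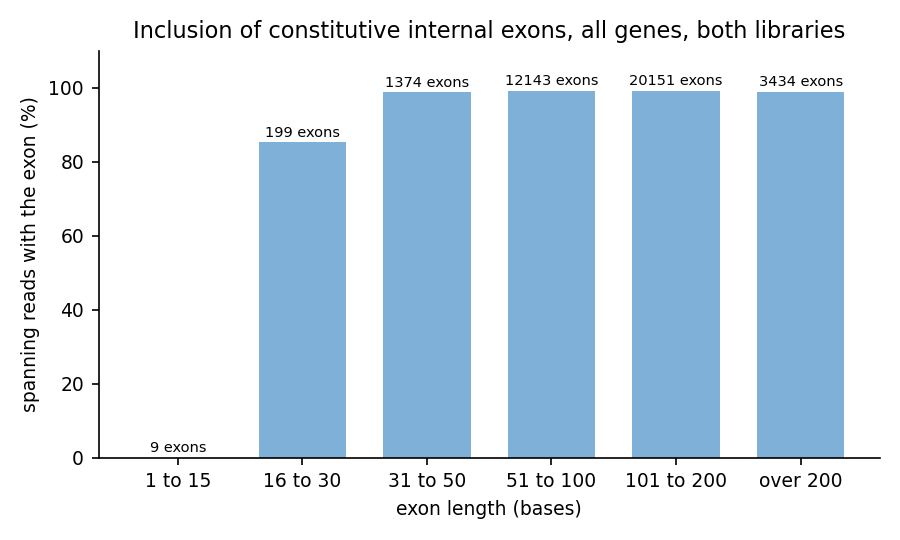
Share of spanning reads (%) that contain a constitutive internal exon, by exon length in bases, pooled over exons of all genes and both libraries. No spanning read holds any of the 9 exons of up to 15 bases, 85.2% hold exons of 16 to 30 bases, and 98.8% or more hold longer exons.

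Phox2a (ENSMUSG00000007946.11, chr7:101818313-101822726, + strand) encodes a homeodomain factor that binds the promoter of the noradrenaline-making enzyme gene Dbh. It had 6 reads (10.1 CPM) in replicate 1 and 18 reads (23.3 CPM) in replicate 2, a mean of 16.7 ± 9.33 CPM (SD, n = 2). Replicate 2 was the higher library and the spread was the widest of the 8 genes relative to the mean. The ratio was 0.434 (0.141 to 1.14) with an adjusted p of 0.416 in the exact binomial test, so a difference was not detectable at this depth. With its 24 reads in all, only a ratio of 3.70 or more towards replicate 1 or of 4.72-fold or more towards replicate 2 could have been called. The 3-exon transcript Phox2a-201 held 5 reads in replicate 1 and 14 in replicate 2. Phox2a overlaps the end of Inppl1 on the other strand by 95 bases.

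Hand2 (ENSMUSG00000038193.4, chr8:57320983-57324633, + strand) encodes a basic helix-loop-helix factor of sympathetic precursors and of the heart. It had 11 reads (18.5 CPM) in replicate 1 and 10 reads (13.0 CPM) in replicate 2, a mean of 15.7 ± 3.96 CPM (SD, n = 2), the lowest mean CPM of the 8 genes. The 2-exon transcript Hand2-201 held 9 reads in replicate 1 and 8 in replicate 2, and the other 2 reads of each library were single-exon reads. Those single-exon models lie inside the last exon and meet at 57324233, which is also the annotated start of the antisense gene Hand2os1. Hand2os1 overlaps Hand2 by 3251 bases on the other strand, and its reads numbered 8 in replicate 1 and 20 in replicate 2. The spliced reads have introns, which fix their strand, whereas the strand of the single-exon reads cannot be checked from the deposited tables.

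Gata3 (ENSMUSG00000015619.10, chr2:9857078-9890034, − strand) encodes a zinc-finger factor needed for sympathetic neurons and chromaffin cells to make noradrenaline, and is also used by T cells and by the kidney collecting duct. It had 11 reads (18.5 CPM) in replicate 1 and 17 reads (22.02 CPM) in replicate 2, a mean of 20.3 ± 2.45 CPM (SD, n = 2). The libraries overlapped in their intervals. Markers of the other cell types were counted beside it. The 6 genes of T and innate lymphoid cells had 5 reads in replicate 1 and 9 in replicate 2, with Il1rl1 and Rag1 at 0 in both. The collecting duct gene Aqp2 had 0 reads in replicate 1 and 53 reads in replicate 2. Replicate 1 had 11 Gata3 reads and 0 reads on the kidney list. Which cells the Gata3 reads came from was not tested in either library, nor was the part of kidney tissue in replicate 2.

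Gata3 reads lay mostly on unannotated models. All were spliced, but 1 of 11 reads in replicate 1 and 8 of 17 in replicate 2 lay on the annotated 6-exon transcript Gata3-201. Of the reads with the last intron, 5 of 11 in replicate 1 and 11 of 17 in replicate 2 also had the first, together 57.1%, against a median of 88.7% (quartiles 75 and 95) over 5827 genes. Most of the other reads began at internal exons. A second source of unannotated models was the start of exon 4 (chr2:9868761-9868906), which in some reads began 3 bases later. The junction is shown from GENCODE M21 on mm10, on the strand of the gene, with the last 30 bases of exon 3, then the first 30 of exon 4, and with the 3 optional bases in capitals.
Gata3 exon 3 to exon 4: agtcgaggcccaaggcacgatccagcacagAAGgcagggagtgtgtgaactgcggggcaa
The 3 bases end in AG, the letters that also end an intron, and their loss shortens the reading frame of 443 residues by 1 codon. The shorter form was present in 5 of 9 reads in replicate 1 (55.6%, 21.2 to 86.3) and in 3 of 15 in replicate 2 (20%, 4.33 to 48.1), together 8 of 24 (33.3%, 15.6 to 55.3). The intervals overlap, so a difference between the libraries was not detectable at this depth.

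**Figure D3:**
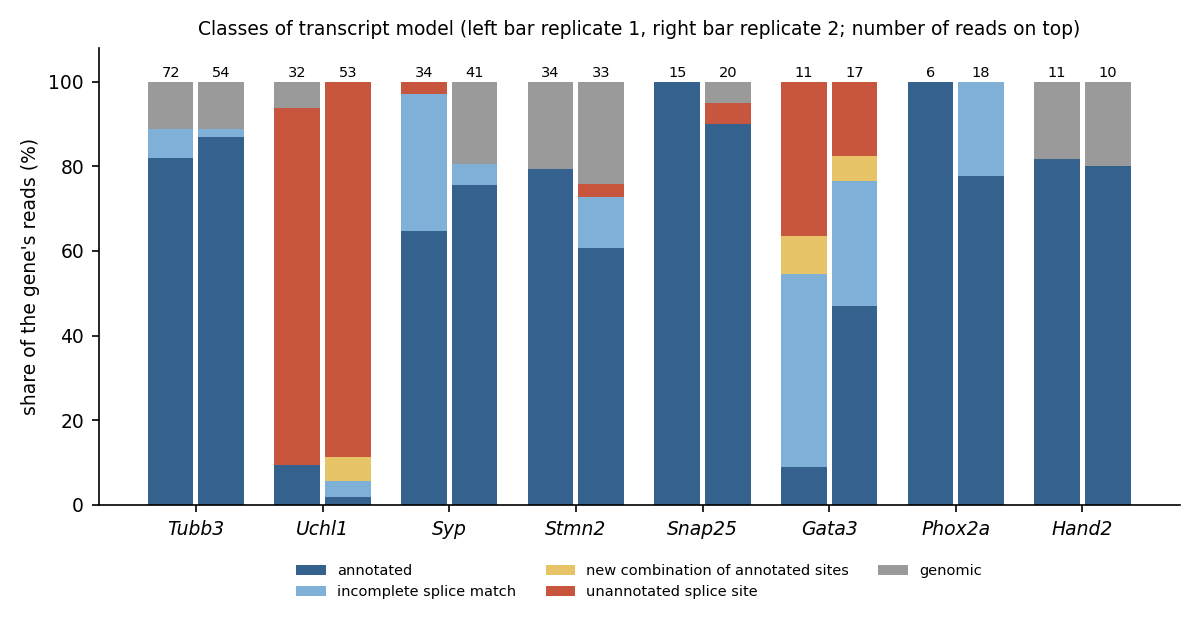
Share of each gene's reads (%) on annotated models and on each class of unannotated model, with the left bar for replicate 1, the right bar for replicate 2 and the number of reads on top. Uchl1 stands apart with 9.38 and 1.89% of its reads on annotated models, followed by Gata3 with 9.09 and 47.1%, and the other genes lie at 60.6% or above.

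The share of reads on annotated models varied more among the 8 genes than between the libraries. It was 100% in replicate 1 and 90% in replicate 2 for Snap25, 81.9 and 87.0% for Tubb3, 81.8 and 80% for Hand2, and 100 and 77.8% for Phox2a. Syp had 64.7 and 75.6%, and Stmn2 had 79.4 and 60.6%. The median over 7310 genes was 75% (quartiles 53.8 and 87.5). Fisher's exact test (two-sided) of this share between the libraries called 15 of 6886 genes (0.218%), and 0 of the 7 members with enough reads. Phox2a had too few. Gata3 came closest, with a difference of -37.97 percentage points between replicate 1 and replicate 2, an exact p of 0.0491 and an adjusted p of 0.607.

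No member passed the test between the libraries at gene level either. The exact binomial test, with Benjamini-Hochberg adjustment and a 2-fold minimum, called 410 of 10567 genes (3.88%), of which 306 were higher in replicate 1 and 104 in replicate 2. With the catecholamine genes as totals the split was 427 and 70. Of the 8 members 4 were higher in replicate 1 (Tubb3, Syp, Stmn2 and Hand2) and 4 were lower (Uchl1, Snap25, Gata3 and Phox2a). Their median log2 ratio was 0.05, beside 0.04 over all genes tested. edgeR's negative binomial exact test called 132 genes and 0 members, with 446 genes at an unadjusted p below 0.05. Its coefficient of variation of 0.251 was estimated from the same 2 libraries that it compares, so its lack of member calls adds nothing to the binomial test. The ratio was 0.786 for Uchl1 (0.490 to 1.24), 1.08 for Syp (0.664 to 1.74), 1.34 for Stmn2 (0.806 to 2.23), 0.976 for Snap25 (0.465 to 2.01), 0.842 for Gata3 (0.357 to 1.91) and 1.43 for Hand2 (0.552 to 3.76). These intervals leave room for differences that the depth could not show. The smallest ratio that could have been called towards replicate 1 was 2.04 for Tubb3 and Uchl1, 2.77 for Snap25, 3.14 for Gata3 and 3.91 for Hand2.

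**Figure D4:**
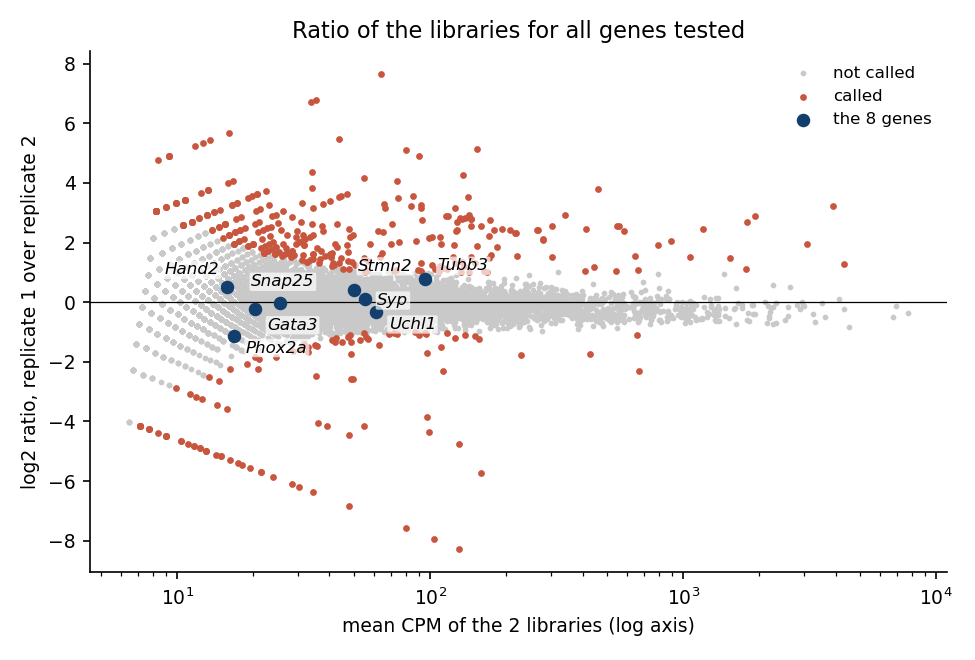
Log2 ratio of replicate 1 over replicate 2 against mean CPM (log axis) for the 10567 genes tested, with called genes and the 8 members marked. The members lie between -1.13 (Phox2a) and 0.79 (Tubb3), inside the cloud of genes that were not called, which widens towards low CPM.

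Summed over the 8 genes the reads gave a ratio of 1.14 (0.943 to 1.37), replicate 1 over replicate 2, and the 10 catecholamine genes gave 0.890 (0.852 to 0.930). The first value rests on Tubb3. The other 7 genes held 143 reads (241 CPM) in replicate 1 and 192 reads (249 CPM) in replicate 2, a ratio of 0.970 (0.775 to 1.21), a value added after the data were seen. For each 100 reads on catecholamine genes there were 6.34 reads on the 8 genes in replicate 1 and 4.96 in replicate 2. The difference between these sums was not tested.

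The other genes of each pathway were counted against the 3.88% of all tested genes that were called, a share at which lists of this size hold few or no calls. Of 15 sympathoadrenal transcription factors 10 were tested and 0 called, with a median log2 ratio of -0.14. They summed to 329 CPM in replicate 1 and 350 CPM in replicate 2. Sox4 had the highest mean level (93.7 CPM), followed by Gata2 (89.4 CPM). Of 31 SNARE and synaptic vesicle genes 23 were tested and 0 called, with a median of 0.01 and sums of 1047 and 1065 CPM. The highest were Napa, a SNARE-disassembly adaptor (204 CPM), Vamp3 (131 CPM) and the synaptophysin relative Sypl (110.5 CPM). Sv2b and Synpr had 0 reads in both libraries.

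Among cytoskeletal genes, Tubb3 was a small part of the tubulins. The 13 tubulins summed to 3272 CPM in replicate 1 and 2861 CPM in replicate 2, 12 were tested and 0 called, with a median of 0.10, and Tuba1b (881 CPM), Tuba1a (705 CPM) and Tubb5 (446 CPM) were the highest. Stmn2 was close to its relatives Stmn1 (61.0 CPM) and Stmn3 (48.0 CPM). The 4 stathmins summed to 174 and 155 CPM, 3 were tested and 0 called, with a median of 0.16. Of the 4 ubiquitin hydrolases of the UCH family, all were tested and 0 called, with a median of -0.20, and Bap1 (113 CPM) and Uchl3 (89.8 CPM) had more reads than Uchl1. The 16 other neuronal cytoskeleton and growth cone genes summed to 491 and 426 CPM. Of these, 11 were tested and 0 called, with a median of 0.38 and 9 of 11 towards replicate 1. The highest were Nnat (151 CPM), Rtn1 (67.5 CPM) and Gap43 (46.9 CPM), and Dcx, a marker of migrating neurons, had 0 reads in both libraries.

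Markers of other cell types were present at various levels. The 9 Schwann cell and glial genes summed to 133 CPM in replicate 1 and 168 CPM in replicate 2, led by S100b (69.3 CPM) and Mbp (29.2 CPM), with 4 tested and 0 called. The 5 genes of brain neurons and glia had 4 reads in replicate 1 and 2 reads in replicate 2, with Slc17a7 and Neurod6 at 0 in both. Of the 5 capsule and stroma genes 3 were tested and 0 called, and they held 763 and 773 reads, mostly Col1a1 (873 CPM) and Dcn (209 CPM), then Nr2f2 (54.2 CPM), with Gli1 at 0 in both. The T and innate lymphoid genes were led by Cd3g (4.28 CPM), Cd4 (3.43 CPM) and Cd3e (1.69 CPM), with none tested. Of the 5 cortex genes and the 10 catecholamine genes, all were tested and 0 called. The highest were Cyp11a1 (7715 CPM), Cyp21a1 (4321 CPM) and Hsd3b1 (2895 CPM) in the cortex list and Chgb (1875 CPM), Chga (1712 CPM) and Th (943 CPM) in the other. Some differed by less than 2-fold at a small adjusted p in the exact binomial test, such as Pnmt, the enzyme that makes adrenaline, with 191 reads in replicate 1 and 433 in replicate 2. Of the 10 kidney genes 8 were tested and all 8 were called, each at 0 reads in replicate 1. The highest were Slc34a1, Miox and Aqp2, with 200, 160 and 53 reads in replicate 2, and Pax2 had 0 reads in both. How much of each of the 8 genes' reads came from chromaffin cells, nerve fibres or ganglion cells was not tested.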

How the data were processed

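For each of 2 adrenal gland long-read libraries the authors deposited counts of whole reads per transcript model, not normalized and listing only models with reads, with the exon number and length of each model and its coordinates. The deposited notes give mm10 and GENCODE M21, and the deposited annotation names TALON. For platform, aligner and versions, none is given in the sources used here.

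Reads were summed per gene over models of every class, and CPM used totals without ERCC spike-ins (2.23 and 2.09% of reads). Genes with 10 or more reads summed were tested by an exact binomial test (two-sided, outcomes no more likely than the observed one) against each library's part of the totals, with Benjamini-Hochberg adjustment over all of them, and were called when the adjusted p fell below 0.05 and the ratio reached 2-fold (pseudocount 0.5 reads). It compares libraries, not conditions. The share of reads on annotated models was tested by Fisher's exact test where both libraries had 10 or more reads, and called below 0.05 with a difference of 10 percentage points. Shares have Clopper-Pearson and levels exact Poisson intervals. Alternatives were other totals, edgeR 4.0.16 (TMM, negative binomial exact test), filters, model classes and leaving out a library. SciPy 1.17.1 was used, and the tests were tested on simulated data.

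The members and lists were chosen with earlier results of these data known. Named genes are the members, the 3 highest genes and the genes at 0 of each list, transcripts with at least 10% of a member's reads, and genes within 2 kilobases. A few genes that this rule would name are not reported here. Others, such as Pnmt, Alb, Ahsg, Acta1 and the genes with short exons, were named after their values were seen.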

Additional observations from a re-analysis of the deposited data

How the results depend on the processing

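The summed level of the 8 genes was 341 CPM and lay between 319 and 362 CPM when either library was left out. It was 215 CPM on annotated models alone and 300.2 CPM on models of 2 or more exons, and within 1 SD with other totals. Without the 2-fold minimum the binomial test called 782 genes (376 higher in replicate 1 and 406 in replicate 2) and 1 member, Tubb3. edgeR called 132 genes, with a spread estimated from the 2 libraries it compares. No other alternative called a member. The direction of the library ratio turned in 6 alternatives, none past the threshold, and 57 others kept direction and call. The log2 ratio of Snap25, -0.02, became 0.0089 with reads on annotated genes as totals, 0.14 with catecholamine totals, 0.13 on annotated models and 0.049 on models of 2 or more exons. On annotated models Uchl1, at -0.34, became 1.60 with 3 and 1 reads, and Syp, at 0.11, became -0.10. Catecholamine totals moved the median log2 ratio of all genes tested to 0.21, against 0.04. With 20 reads in each library the share test called 22 genes, with 4 members tested and 0 called. Depth limits all of this, since Phox2a, Hand2 and Gata3 rest on 24, 21 and 28 reads. No paired analysis was possible because there is 1 group.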
